A study of Mus musculus with 30 samples.

Results

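Prolactin (PRL) was compared with vehicle (Veh) in the hind paw of male mice. The comparison used the 6 libraries, of 30 in the series, whose titles mark them as male paw with PRL or Veh, 3 in each group. All mice are labelled C57BL/6J and 10 to 12 weeks old. The PRL group had received 1 µg of prolactin injected into the paw, and the Veh group phosphate-buffered saline. Mice were injected once or every day for 12 days according to the protocol, and which schedule a library followed is not stated. RNA came from whole hind paw tissue, so each library mixes skin, connective tissue, muscle and immune cells. Since nothing states that replicates are separate animals, the p-values reflect only how far these samples spread, which may be technical. By label 18 libraries of the series are female and 12 male, the reverse of what its text says. The most similar comparison of the series, PRL against Veh in the female paw with 3 libraries a group, is used where a difference from it could be tested.

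Prolactin is a pituitary hormone best known for its action on the mammary gland. Its receptor, encoded by Prlr, has no enzyme activity of its own and works through the bound kinase JAK2, which activates the transcription factor STAT5, and SOCS and CISH proteins then damp the signal. In skin and its sensory nerve endings prolactin is studied as a local regulator of hair growth, immunity and pain, and the title of the series places it in work on sex differences in pain.

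Reads in genes, in units of M (1e6), numbered 10.6 to 13.5 in 5 of the 6 libraries and 6.87 in Veh replicate 2 (Veh 2). In Veh 2, 13.6% of the reads fell in genes and 55.5% mapped to several places, against 22.3% to 26.2% and 41.5% to 44.8% in the other 11 rRNA-depleted paw libraries. Lars2, a mitochondrial tRNA ligase gene, stood at 12970 counts per M gene reads (CPM) in Veh 2 and at 24.4 to 244 CPM in the others. At a mean log2 CPM of 1 or more, only Lars2 and Mir5109 in Veh 2 were over 2 times the highest of the other 11 libraries. In the same range of levels 24 genes were under 0.5 times the lowest of the other 11. The counts over all genes and over the main gene lists are given with and without this library. Xist did not exceed 5.24 CPM in the male libraries, and 4 Y-linked genes were at 37.3 CPM or more, as their labels require. The epidermal keratin Krt10 was at 14180 to 28390 CPM, and the sensory neuron channel Scn10a at 0.0742 to 1.602 CPM.

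A set of genes separated PRL from Veh libraries in every tissue and sex. Nnt encodes a mitochondrial transhydrogenase, and the C57BL/6J substrain is known to carry a deletion in it that the C57BL/6N substrain lacks. Nnt stood at 69.1, 35.9 and 43.2 CPM in the male paw PRL libraries and at 11.1, 12.9 and 11.2 CPM with Veh, with CPM here and below scaled by the trimmed mean of M values (TMM). Its log2 change was 2.08 ± 0.24 (SE, n = 3 a group), with an edgeR adjusted p of 0.000198. Ide, the insulin-degrading enzyme, and Fgfbp3, a carrier of fibroblast growth factors, are neighbours on one chromosome and are known to vary in copy number among C57BL/6J mice. Ide stood at 692, 798 and 707 CPM with PRL and at 1576, 1322 and 1305 CPM with Veh. Fgfbp3 stood at 2.90, 3.79 and 2.52 CPM with PRL and at 10.2, 8.88 and 8.15 CPM with Veh. In the dorsal root ganglion of male mice Nnt was at 38.0 to 45.5 CPM of gene reads with PRL and at 18.7 to 22.3 with Veh, and Ide at 96.7 to 107 and 152 to 160. Wdfy1, Entpd4 and the pseudogene Tmem181b-ps likewise did not overlap between PRL and Veh in any of the 4 comparisons of sex and tissue. In the male paw Wdfy1 and Tmem181b-ps rose by 1.20 and 1.64 on the log2 scale and Entpd4 fell by 0.86. These 6 genes were chosen with their values in these libraries known. The share of all genes that separate in all 4 comparisons was not counted. In the male paw alone, 41.5% of all tested genes did not overlap between the groups. All groups carry the same strain label, genotype was not tested, and in these libraries a difference between the mice of the PRL and Veh groups cannot be told apart from an effect of prolactin. This holds for every result below.

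In the male paw 3301 of 14721 tested genes passed an adjusted p of 0.05 (22.4%). Of these, 1812 were higher with PRL (12.3% of the genes tested) and 1489 were lower (10.1%). Without Veh 2, 1353 of 14950 genes were higher (9.05%) and 1439 lower (9.63%). Of the first calls, 1286 rises and 1253 falls were called again, and none turned to the other direction. The count of falls was 816 without PRL 3 and 900 without Veh 1, and the count of rises was 1201 without PRL 3. The median log2 change over all genes was 0.02 with the 6 libraries and 0.00 without Veh 2. Values of PRL and Veh libraries did not overlap for 41.5% of all tested genes, and for 52.7% without Veh 2. In these bulk libraries, a change in the number of cells of a type and a change in RNA per cell cannot be told apart.

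Prlr, the receptor, stood at 50.3, 53.3 and 49.1 CPM with PRL and at 71.9, 72.3 and 67.6 CPM with Veh. All 3 PRL libraries lay below all 3 Veh libraries, but the log2 change of -0.47 ± 0.19 did not pass the test (adjusted p = 0.0923, and 0.149 without Veh 2). Prlr did pass in 4 of 16 alternatives, with an adjusted p of 0.0458 in DESeq2, 0.019 in limma voom and, in edgeR fits to the male libraries alone, 0.006 with Veh 2 and 0.0196 without it. Of 22 tested genes of prolactin and JAK-STAT signalling, 6 rose and 4 fell, with a median log2 change of 0.15, beside 12.3% higher and 10.1% lower over all genes. Without Veh 2, 4 rose and 3 fell of 23, beside 9.05% and 9.63%, and only 1 fell without PRL 3 or without Veh 3 and 2 without PRL 1 or without Veh 1. Igf1, a growth factor gene that STAT5 is known to induce in liver, stood at 282, 310 and 316 CPM with PRL against 151, 131 and 127 CPM with Veh. Igf1 rose by 1.15 ± 0.15 on the log2 scale (adjusted p = 0.000329), with no overlap. Jak2, the kinase bound to the receptor, stood at 115, 128 and 129 CPM with PRL against 73.9, 84.0 and 78.6 CPM with Veh and rose by 0.65, also with no overlap.

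Among the inhibitors of the pathway, Socs1 rose from 3.92, 2.49 and 2.69 CPM with Veh to 7.04, 12.9 and 7.47 CPM with PRL. Socs2 rose by 0.81 (adjusted p = 0.0341), a call lost without Veh 2 (0.0877), and Cish had a log2 change of 0.70 (0.0616). Stat5a and Stat5b themselves were at 0.15 and 0.45 on the log2 scale and did not pass. Myc, a driver of cell growth, fell from 117, 113 and 109 CPM to 52.3, 56.5 and 56.9 CPM (log2 change -1.03 ± 0.12, adjusted p = 0.000234). Elf5, a STAT5 target of the mammary gland, fell by 1.70 at levels under 3 CPM. Socs1, Igf1 and Jak2 were among the members that rose both with and without Veh 2.

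**Figure D1:**
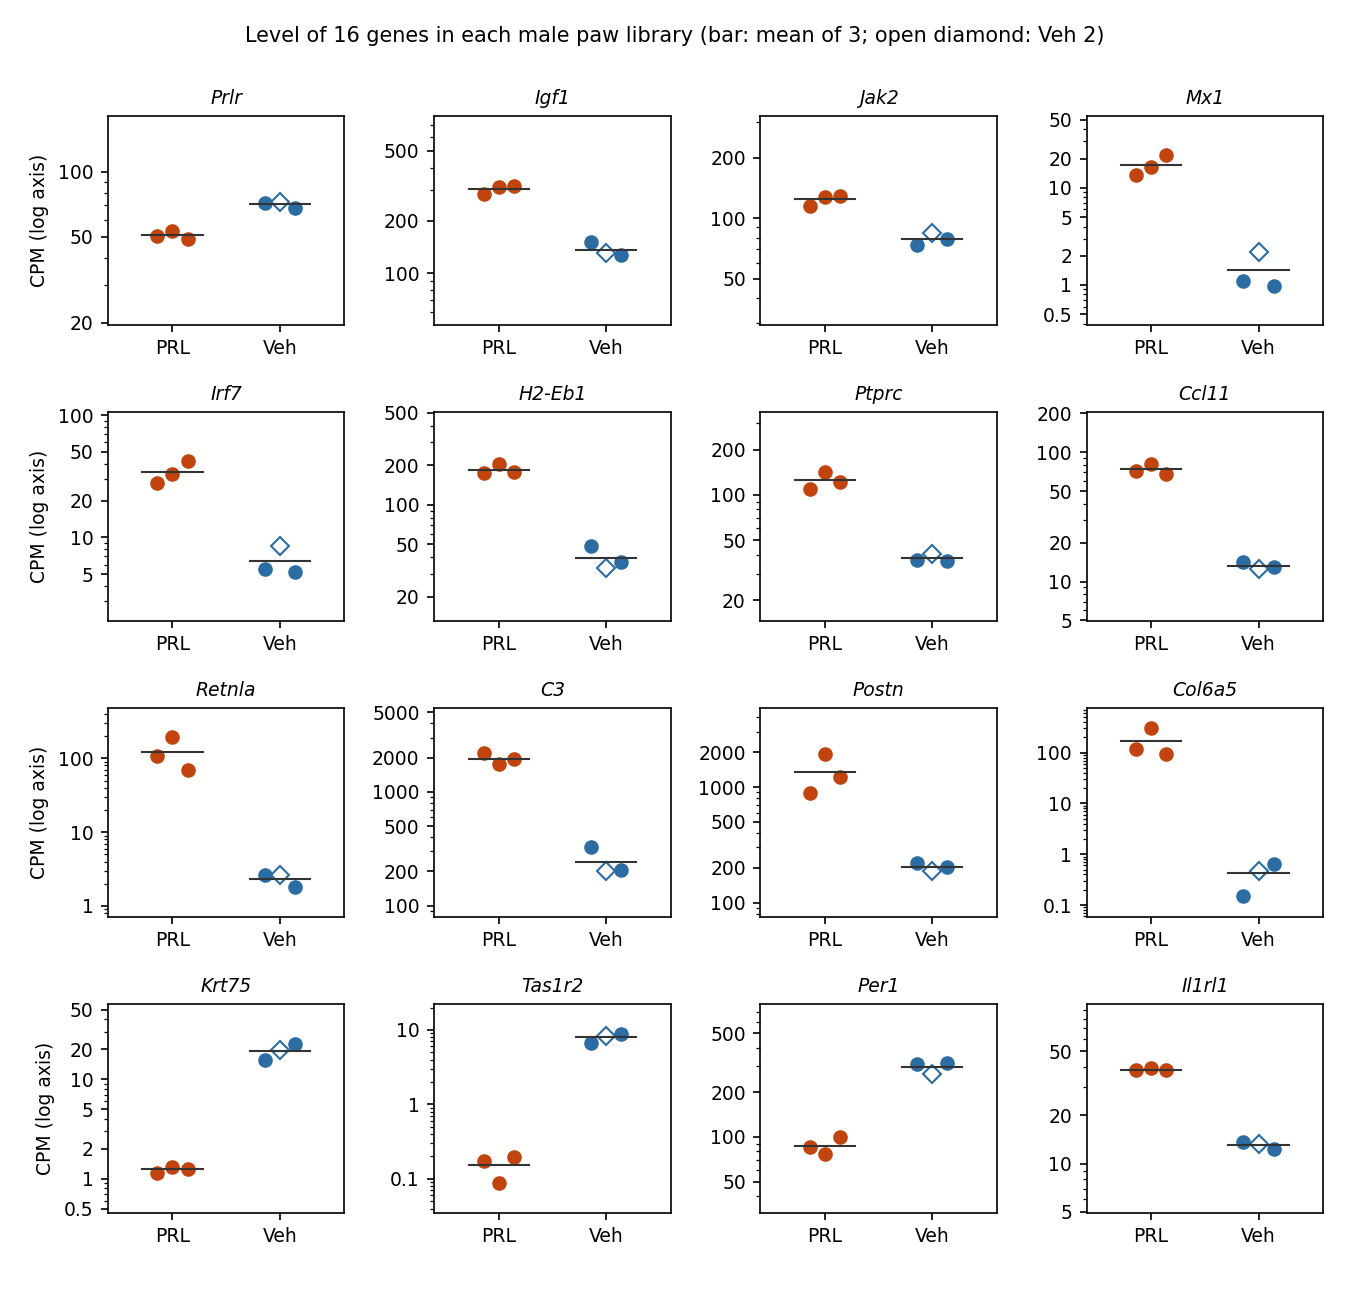
Level of 16 genes in each male paw library, in CPM on a log axis whose range differs between panels. Points are libraries, bars are means of 3, and the open diamond is Veh 2. For Igf1 the PRL libraries lie at 282 to 316 CPM and the Veh libraries at 127 to 151 CPM. The groups overlap in none of the 16 panels. Genes named by size were chosen for this, and 41.5% of all tested genes did not overlap.

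Interferon-response genes are switched on when interferon receptors activate a complex that holds STAT2 and IRF9 and binds a promoter element whose core reads GAAANNGAAA. Members of this and all other lists were chosen with earlier results of these data known. Counts and medians of the lists are therefore descriptive and not independent support. All 19 tested genes of the interferon list rose, beside 12.3% of all genes, with a median log2 change of 2.46 against 0.02 over all genes. All 19 also rose without Veh 2 (median 2.66) and in each of the other alternatives run. RefSeq promoters (GRCm38.p6, 250 bases before to 50 after the start) were found for 15 of the 19. The core occurred on either strand in 9 of these 15 (60%), Bst2, Ddx58, Ifih1, Ifit1, Ifit3, Isg15, Oas1a, Rsad2 and Stat2, and in 3.99% of 27025 genes with a promoter. In 3 of them the matches and up to 40 bases on each side are shown to let the shared element be seen, 5′ to 3′ on the strand of the gene, with matches in capitals. The stretch of Isg15 lies at chr4:156200835-156200936 on the minus strand, that of Ifit1 at chr19:34640745-34640853 on the plus strand and that of Rsad2 at chr12:26456523-26456612 on the minus strand.
Isg15: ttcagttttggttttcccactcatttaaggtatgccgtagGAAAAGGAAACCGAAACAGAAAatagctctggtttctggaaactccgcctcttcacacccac
Ifit1: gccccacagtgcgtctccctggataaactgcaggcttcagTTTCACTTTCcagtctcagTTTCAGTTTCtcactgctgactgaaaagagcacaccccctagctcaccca
Rsad2: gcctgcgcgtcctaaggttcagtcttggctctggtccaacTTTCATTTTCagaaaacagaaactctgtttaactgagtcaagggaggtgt
Isg15 held 3 overlapping matches, Ifit1 held 2 in the opposite orientation and Rsad2 held 1. A match describes the sequence and is not evidence of binding.

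Isg15, a ubiquitin-like protein attached to others during viral infection, stood at 4.49, 4.41 and 7.27 CPM with PRL and at 0.148, 0.779 and 0.245 CPM with Veh. Its log2 change was 4.01 ± 0.53 (adjusted p = 0.000403). Mx1, a GTPase that blocks influenza and related viruses, stood at 13.6, 16.3 and 21.9 CPM with PRL and at 1.11, 2.18 and 0.979 CPM with Veh. The change of Mx1 was 3.70 ± 0.34 (adjusted p = 7.61e-05), and neither gene overlapped between the groups. Rsad2, the antiviral enzyme viperin, stood at 21.8, 35.5 and 33.5 CPM against 2.96, 11.7 and 1.96 CPM. Veh 2 held the highest Veh level of Rsad2, and its log2 change was 2.60 with that library and 3.59 without it.

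Irf7, the factor that amplifies interferon production, rose from 5.47, 8.57 and 5.22 CPM to 27.9, 33.2 and 42.4 CPM (2.46 ± 0.29 on the log2 scale, adjusted p = 0.000235). Stat2 rose by 1.69, Irf9 by 1.05, the sensors of viral RNA Ifih1 and Ddx58 by 1.36 and 1.19, and the tetherin gene Bst2 by 2.22. The inducible chemokine Cxcl10 stood at 7.04, 5.73 and 6.98 CPM with PRL against 0.518, 0.312 and 0.408 CPM with Veh, a log2 change of 3.90 ± 0.58 (adjusted p = 0.000877). The rise covered sensors, transcription factors and effectors of the response, and the smallest of the 19 was that of Irf9. Macrophage markers moved with it: the summed level of 18 macrophage genes was 2300 to 2730 CPM with PRL and 931 to 1322 CPM with Veh, 15 of the 18 rose, 1 fell, and none was at 0. Their part in the interferon-gene result was not tested.

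**Figure D2:**
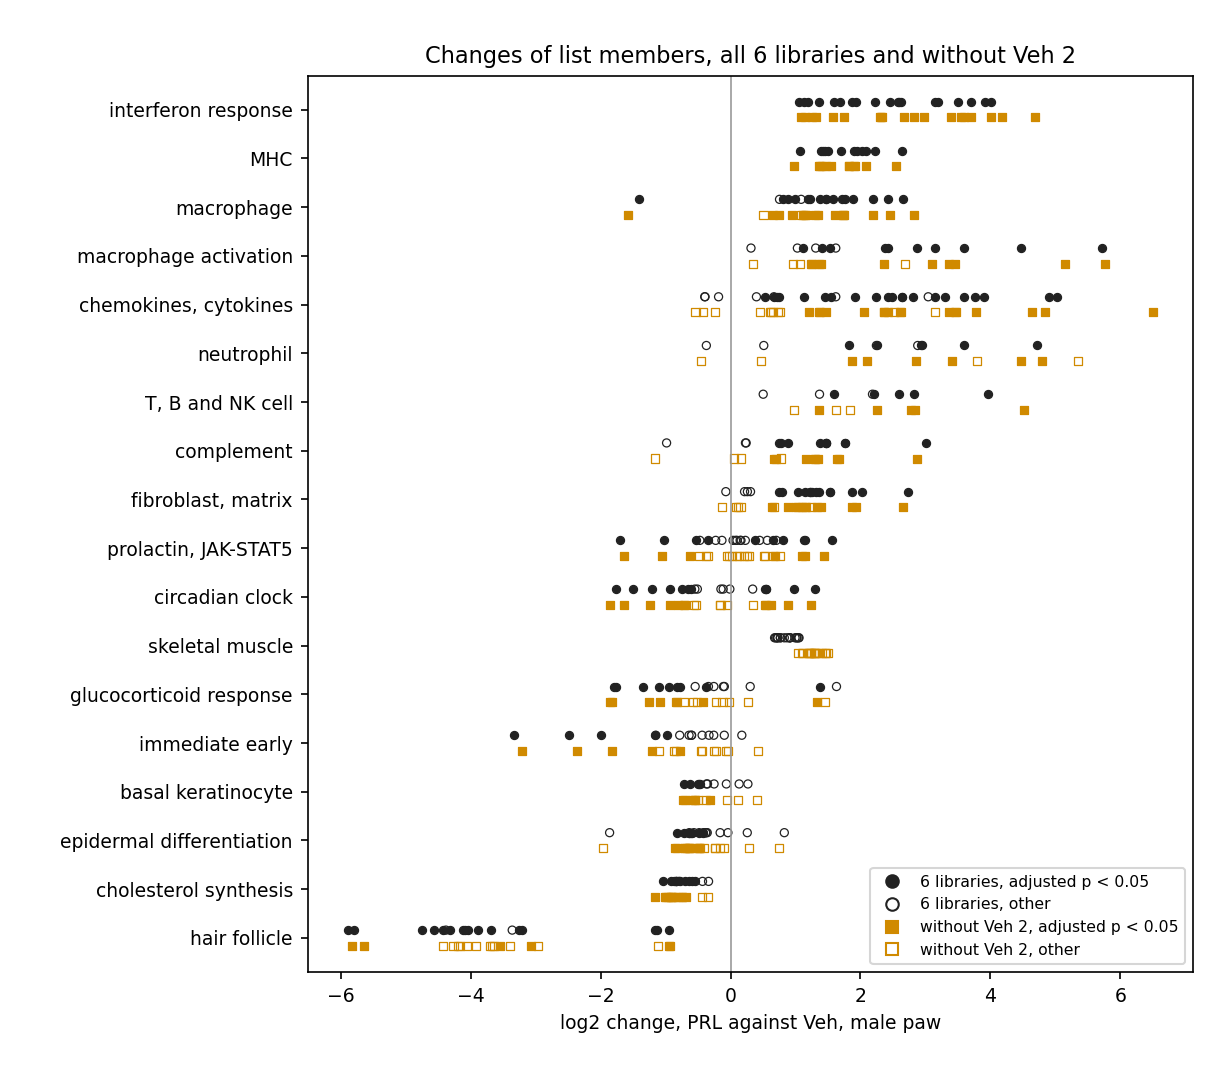
Log2 change between PRL and Veh in the male paw (x axis) for each tested member of 18 gene lists (rows). Black circles use all 6 libraries and orange squares leave out Veh 2; filled symbols have an adjusted p under 0.05. All 19 interferon genes and all 12 MHC genes lie right of 0 and are filled in both fits, while the hair follicle genes lie left of 0 and most lose their fill without Veh 2.

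Genes of antigen presentation by the major histocompatibility complex (MHC) rose together. All 12 tested genes rose with and without Veh 2, with medians of 1.80 and 1.68, beside rises in 12.3% and 9.05% of all genes. Many class I and class II promoters carry a Y box, a site of the factor NF-Y, searched here as CTGATTGG on both strands. It occurred in 6 of the 8 genes with a RefSeq promoter (75%), H2-Aa, H2-D1, H2-Eb1, H2-K1, Psmb9 and Tap1, and in 4.70% of all genes with one. Psmb9 and Tap1 are divergent neighbours and share a single match. Class II genes and a class I gene are shown in the same way, so that the match can be compared between the classes. The stretch of H2-Aa lies at chr17:34287827-34287914 on the minus strand, that of H2-Eb1 at chr17:34305765-34305852 and that of H2-D1 at chr17:35263001-35263088, both on the plus strand.
H2-Aa: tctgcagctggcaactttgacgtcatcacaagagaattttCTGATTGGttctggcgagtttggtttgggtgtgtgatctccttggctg
H2-Eb1: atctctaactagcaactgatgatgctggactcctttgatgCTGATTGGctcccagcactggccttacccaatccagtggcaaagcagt
H2-D1: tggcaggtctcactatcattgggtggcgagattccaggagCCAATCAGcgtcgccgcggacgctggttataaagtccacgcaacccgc
The class I gene H2-D1 held the box in the opposite orientation. The interferon core was found in 1 of the 8 promoters, that of B2m.

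H2-Eb1, a class II chain gene, stood at 174, 203 and 179 CPM with PRL and at 48.7, 32.9 and 37.0 CPM with Veh. Its rise was 2.22 ± 0.17 on the log2 scale (adjusted p = 3.75e-05). H2-Aa and H2-Ab1, the other class II chains, rose by 2.09 and 1.95. The class II activator Ciita rose from 6.06, 4.21 and 4.16 CPM to 24.0, 36.2 and 30.9 CPM, by 2.64 on the log2 scale. Among class I genes H2-K1 rose by 1.46 and B2m, the shared light chain, by 1.40, and the peptide transporter Tap1 rose by 1.43. No MHC gene overlapped between the groups, beside 41.5% of all tested genes without overlap. Levels of H2 genes depend on how reads that fit several near-identical copies were treated. Such reads were set aside as multimapped, so these values rest on reads that mapped to 1 place. The same holds for the Ifit, Krtap, Sprr2, Stfa and Ear genes and for Ccl8 and Ccl12.

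Leukocyte and macrophage genes rose. Ptprc encodes CD45, the surface phosphatase of white blood cells. Its level was 110, 142 and 123 CPM with PRL and 37.0, 40.4 and 36.5 CPM with Veh, a log2 change of 1.72 ± 0.10 (adjusted p = 1.4e-05), with no overlap. Of 18 macrophage genes 15 rose and 1 fell (14 and 1 without Veh 2), with a median of 1.42. The shares over all genes were 12.3% higher and 10.1% lower (9.05% and 9.63% without Veh 2). Ctss, a lysosomal protease, rose by 2.19, Emr1, the F4/80 antigen, by 1.89, and Aif1, also called Iba1, by 2.66. Csf1r and Mrc1, carried by resident macrophages, rose less, by 0.88 and 0.81. The gene that fell was Cd163, the haemoglobin scavenger receptor of resident macrophages, from 135, 77.6 and 83.7 CPM to 38.8, 37.6 and 35.3 CPM (log2 change -1.41, adjusted p = 0.0013). Lyve1, carried by lymphatic vessels and by a subset of resident macrophages, also fell, by 1.41, while the lymphatic factor Prox1 rose by 0.67.

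Of 14 genes of macrophage activation 10 rose (9 without Veh 2), beside 12.3% of all genes (9.05% without Veh 2). The median log2 change of the list was 2. Retnla, a secreted product of macrophages exposed to IL-4, stood at 106, 192 and 69.1 CPM with PRL and at 2.59, 2.65 and 1.79 CPM with Veh, a log2 change of 5.72 ± 0.81 (adjusted p = 0.000644). Mmp12, the macrophage elastase, stood at 19.8, 27.5 and 50.3 CPM against 0.739, 3.27 and 1.06 CPM. Arg1 rose by 1.40 and Nos2, the inducible nitric oxide synthase, by 2.87. The PRL libraries differed among themselves by over 2 times in Retnla and Mmp12, and still none overlapped with Veh. Markers linked to IL-4 (Retnla, Arg1) and to interferon gamma (Nos2, Cxcl9) both rose.

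Of 28 chemokine and cytokine genes 21 rose (16 without Veh 2), none fell, and the median was 2.08. Beside this list and the complement list, 12.3% of all genes rose and 10.1% fell (9.05% and 9.63% without Veh 2). Ccl11, eotaxin, which attracts eosinophils, stood at 71.6, 82.0 and 68.5 CPM with PRL and at 14.1, 12.5 and 13.0 CPM with Veh (2.48 ± 0.15, adjusted p = 1.4e-05). Ccl8 rose by 3.59, Cxcl5 by 3.30, Ccl7 by 1.92 and Ccl2, which attracts monocytes, by 1.13. Il1b stood at 57.3, 15.3 and 23.9 CPM with PRL against 1.63, 5.14 and 4.57 CPM with Veh, and PRL 1 held by far the highest level. Cxcl1 and Il6 had log2 changes of 0.40 and -0.40 and did not pass, and neither did Il1a at -0.18. Complement genes followed, with 10 of 13 higher (9 without Veh 2). C3, the central complement protein, stood at 2175, 1749 and 1949 CPM against 325, 201 and 205 CPM, a rise of 3.01 ± 0.29 (adjusted p = 9.13e-05).

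Other immune cell types were read from fewer and weaker genes. Of 10 tested neutrophil genes 6 rose (6 of 12 without Veh 2), but only 3 without PRL 1 or with the replicate number as a block. In the fit to the male libraries alone without Veh 2, 3 of 9 rose. Beside this list and the T, B and NK cell list, 12.3% of all genes rose (9.05% without Veh 2). S100a9, a subunit of calprotectin, stood at 259, 27.8 and 39.0 CPM with PRL and at 2.51, 19.2 and 7.09 CPM with Veh, and its call was lost without PRL 1 and without Veh 3. Its partner S100a8 stood at 232, 36.7 and 48.8 CPM against 3.92, 23.7 and 15.7 CPM. PRL 1 held the highest level of both, while Csf3r, the receptor of the neutrophil growth factor, was even over the PRL libraries at 29.1, 25.3 and 24.7 CPM against 3.62, 2.96 and 3.51 CPM with Veh. Of 8 tested T, B and NK cell genes 5 rose (6 of 10 without Veh 2, and 3 without Veh 1). Cd4 stood at 6.69, 6.97 and 5.04 CPM with PRL against 0.961, 0.935 and 0.734 CPM, and Cd3d, Cd8a and Ms4a1 were too low to be tested.

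Of 10 dendritic and Langerhans cell genes 4 rose and 1 fell (5 and 0 without Veh 2), and 2 rose without Veh 3. Over all genes 12.3% rose and 10.1% fell (9.05% and 9.63% without Veh 2). Itgax, the integrin CD11c, rose from 4.51, 4.36 and 5.63 CPM to 27.9, 45.6 and 43.3 CPM (2.996 ± 0.189, adjusted p = 1.47e-05). Cd207, which marks Langerhans cells, had a log2 change of -0.05, and Epcam, which these cells share with epithelium, fell by 0.67, a call lost without Veh 2 (0.0636). Of 9 mast cell genes only Hdc, the enzyme that makes histamine, rose with and without Veh 2, from 2.96, 4.05 and 2.94 CPM to 24.5, 12.2 and 14.8 CPM (2.41 ± 0.29, adjusted p = 0.00025). The mast cell proteases Cpa3, Mcpt4 and Cma1 had log2 changes of -0.49, -0.35 and -0.03 and did not pass. No other mast cell gene of the list passed, so the count of rises was near the share over all genes. Hdc is known to be made by neutrophils and macrophages as well as by mast cells.

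Genes of the extracellular matrix rose. Of 18 fibroblast and matrix genes 14 rose (12 without Veh 2), with a median of 1.22. Postn, periostin, stood at 889, 1926 and 1226 CPM with PRL and at 218, 189 and 203 CPM with Veh (2.73 ± 0.27, adjusted p = 0.00011). Lox, which cross-links collagen, rose from 138, 162 and 167 CPM to 492, 590 and 614 CPM, and Col6a2 rose by 2.03 and Col6a1 by 1.52. The abundant collagens Col1a1 and Col3a1 rose by 1.22 and 1.31. The fibroblast markers Pdgfra and Dcn had log2 changes of 0.22 and -0.07 and did not pass, and neither did Lum at 0.31 and Mmp2 at 0.26. Of 14 endothelial genes 3 rose and 1 fell, with and without Veh 2, beside 12.3% and 10.1% over all genes. Vwf and Flt1 were among the 3, at 0.62 and 0.48, and the call of Vwf was lost without PRL 3.

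Among the 10 rises named by size, the eosinophil-associated ribonuclease Ear11 was at 2.46, 11.8 and 2.23 CPM with PRL and had no read in any Veh library. Against a floor of 3 reads over the Veh group Ear11 was at least 58.5-fold higher, a limit that covers counting error only. Col6a5, a collagen VI chain, stood at 119, 301 and 95.1 CPM with PRL and at 0.148, 0.468 and 0.652 CPM with Veh, a log2 change of 8.69 ± 0.78 (adjusted p = 7.51e-05). Col6a6, another collagen VI chain, stood at 18.5, 34.1 and 10.4 CPM against 0.887, 0.935 and 0.489 CPM.

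Irg1, the macrophage enzyme that makes itaconate, stood at 58.1, 33.2 and 35.7 CPM with PRL and at 0, 1.71 and 0.652 CPM with Veh (6.07 ± 0.99, adjusted p = 0.00159). Pdcd1lg2, the checkpoint ligand PD-L2, stood at 2.11, 5.82 and 5.53 CPM and had 1 read in all Veh libraries together. Car4, Retnla, Retnlg, the coagulation factor gene F7 and the transporter gene Slc13a3 completed the 10, each with a log2 change of 4.70 or more. In Car4, Col6a5, Ear11 and Retnla PRL 2 was the highest library, while in Slc13a3 and Irg1 PRL 1 was, so no single library gave all of these rises.

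**Figure D3:**
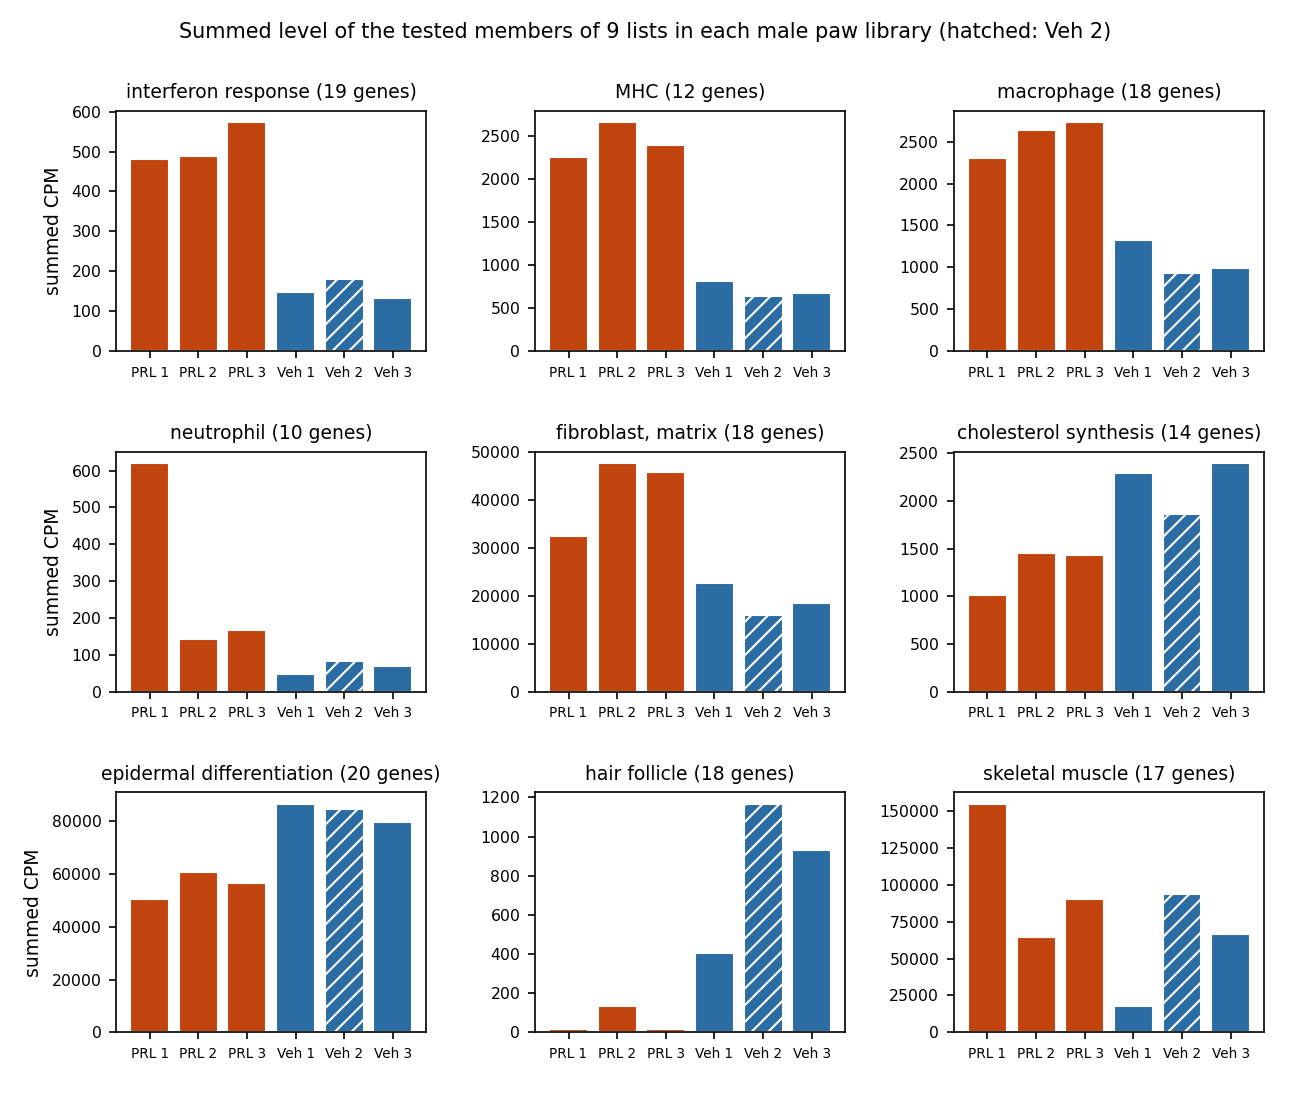
Summed CPM of the tested members of 9 gene lists (panels) in each male paw library, with PRL in orange, Veh in blue and Veh 2 hatched; every axis starts at 0. The 3 PRL libraries are above all Veh libraries for the interferon, MHC, macrophage, neutrophil and matrix lists and below them for the cholesterol, epidermal and hair follicle lists, and the muscle list overlaps, with Veh 1 the lowest at 17810 CPM.

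Hair follicle genes were lower with PRL, and the count depended on single libraries. All 18 tested genes had a negative log2 change, with a median of -4.07. None overlapped between the groups, beside 41.5% of all tested genes without overlap. Of the 18, 16 passed the test with all 6 libraries and 6 without Veh 2 (median -3.69), beside falls in 10.1% and 9.63% of all genes. The count was 5 without PRL 1, 5 without PRL 3, 7 without Veh 3 and 9 with DESeq2, while all 18 passed without PRL 2. Tchh, trichohyalin of the inner root sheath, stood at 4.93, 63.3 and 3.88 CPM with PRL and at 170, 613 and 451 CPM with Veh. The summed level of the list was 15.5, 135 and 15.6 CPM with PRL and 406, 1167 and 930 CPM with Veh. PRL 2 was the highest PRL library and Veh 1 the lowest Veh library. Krt75, a keratin of the companion layer, was more even, at 1.14, 1.32 and 1.26 CPM against 15.4, 19.5 and 22.7 CPM (-3.94 ± 0.66, adjusted p = 0.00183; 0.00583 without Veh 2).

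Of the 10 named falls 9 were hair keratin or keratin-associated protein genes. Krtap7-1 had no read in any PRL library and stood at 4.21, 9.35 and 6.61 CPM with Veh, at least 69.6-fold lower with PRL against the same floor. Krtap4-2 had 1 read in the PRL group and stood at 2.96, 9.20 and 5.79 CPM with Veh, and Krt34 and Krt86 had 3 reads each with PRL. Krtap3-3 fell by 5.27, and the calls of Krtap13-1, Krtap3-1 and Krtap1-4 were lost without PRL 1 or PRL 3. Those of Krtap3-1 and Krtap1-4 were also lost with DESeq2. Krt33a fell by 4.75, a call lost in 6 of 16 alternatives, among them DESeq2 and the fit without Veh 2. The other gene was Tas1r2, a subunit of the sweet taste receptor, at 0.176, 0.088 and 0.194 CPM against 6.73, 8.26 and 8.89 CPM (-5.61 ± 0.54, adjusted p = 9.29e-05). In the follicle the transcription factors Hoxc13, Msx2 and Lef1 fell by 0.94, 1.13 and 1.16, and the call of Lef1 was lost without Veh 2 (0.0538).

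Epidermal genes also tended lower. Beside the 3 epidermal lists given here, 10.1% of all genes fell and 12.3% rose (9.63% and 9.05% without Veh 2). Of 20 genes of epidermal differentiation 8 fell and none rose (6 without Veh 2, 4 without PRL 1, 2 without PRL 3, 4 without Veh 1 and 5 without Veh 3), with a median of -0.48. Their summed level was 50630 to 60820 CPM with PRL and 79670 to 86610 CPM with Veh. Dsc1, a desmosomal cadherin, stood at 1689, 1999 and 1788 CPM against 3562, 3164 and 2926 CPM (-0.82 ± 0.14, adjusted p = 0.00254), and the proteases Klk5 and Klk7 fell by 0.72 and 0.43. Of 11 basal keratinocyte genes 5 fell (6 without Veh 2), among them Trp63, the epithelial stem cell factor, by 0.72 and Col17a1, a hemidesmosome collagen, by 0.62, while Krt14 had a log2 change of 0.13. Genes of wounded or inflamed epidermis went the other way in part. Of 13, 4 rose (4 of 14 without Veh 2, and 3 without PRL 1 or Veh 1), Sprr2d, Sprr2h, Stfa1 and Stfa3. Krt6a, Krt6b and Krt16 had log2 changes of 1.43, 2.04 and 1.83 that did not pass (adjusted p = 0.119, 0.191 and 0.0855). In the fit to the male libraries alone 7 of 14 rose.

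Muscle content varied between libraries of a group. The 17 muscle genes summed to 154900, 64490 and 90590 CPM with PRL and to 17810, 93480 and 66810 CPM with Veh, none passed the test with or without Veh 2, and none was at 0. Their median log2 change was 0.87, and 1.28 without Veh 2. With the muscle level as a covariate, 3160 genes passed. Of 15 adipocyte genes 5 fell and 1 rose (4 and 1 without Veh 2, and 3 fell without Veh 1 and without Veh 3). Over all genes 10.1% fell and 12.3% rose (9.63% and 9.05% without Veh 2). Plin1, which coats fat droplets, fell by 1.49 and the hormone gene Retn by 1.81, while Lpl, lipoprotein lipase, rose by 0.77.

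Genes of cholesterol synthesis fell. Of 14, 11 fell (12 without Veh 2) and none rose, with a median of -0.78, beside falls in 10.1% of all genes (9.63% without Veh 2). None overlapped between the groups, beside 41.5% of all tested genes without overlap. Fdft1, squalene synthase, stood at 30.3, 26.5 and 27.5 CPM with PRL and at 58.0, 48.5 and 53.0 CPM with Veh (-0.92 ± 0.10, adjusted p = 0.000162). Lss, which closes the sterol rings, fell by 1.04 and Sqle, squalene epoxidase, by 0.84. Their regulator Srebf2 fell by 0.54. A promoter was found for 8 of the 14, and none held the sterol element core TCACCCCAC, which 0.614% of all genes with a promoter held on either strand.

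The circadian clock genes shifted in both directions, with 5 of 18 higher and 7 lower (4 and 7 without Veh 2, and 3 higher without PRL 1, PRL 2, PRL 3, Veh 1 or Veh 3). Over all genes 12.3% were higher and 10.1% lower (9.05% and 9.63% without Veh 2). Dbp, an output gene, stood at 62.5, 77.2 and 71.8 CPM with PRL and at 28.3, 26.7 and 30.4 CPM with Veh (1.31 ± 0.17, adjusted p = 0.000349), and Per3 and Tef rose by 0.97 and 0.54. The activators Arntl, Clock and Npas2 fell by 1.21, 0.66 and 1.497. Per1 stood at 85.3, 77.2 and 100 CPM against 309, 267 and 316 CPM (-1.76 ± 0.21, adjusted p = 0.000249). The labels used here give no time of tissue collection, so time of day was not tested.

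Of 16 genes that respond to glucocorticoids, stress hormones that damp inflammation, 8 fell and 1 rose (7 and 1 without Veh 2). Beside this list and the immediate early list, 10.1% of all genes fell and 12.3% rose (9.63% and 9.05% without Veh 2). Dusp1, a phosphatase, stood at 97.4, 75.1 and 115 CPM against 399, 329 and 274 CPM, and Errfi1 and Sgk1 fell by 1.35 and 1.10. The median log2 change of the list was -0.46, and 3 of the 16 changes were positive. Fkbp5, Zbtb16 and Tsc22d3, also on the list, had log2 changes of 0.30, -0.10 and -0.54 and did not pass. Of 15 immediate early genes, which any acute stimulus raises within minutes, 5 fell (5 without Veh 2, 3 without PRL 2, and 10 in the fit to the male libraries alone). Fos stood at 39.5, 25.0 and 43.5 CPM with PRL against 223, 239 and 142 CPM with Veh, a call that was lost without PRL 2. Fosb fell by 3.33 and Klf4 by 1.16. Dusp1, Per1 and Sgk1 are also raised by acute stimuli, so the glucocorticoid and immediate early lists are not separate readouts.

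Among 21 mediators of pain 6 rose and 2 fell (5 and 1 without Veh 2, and 1 fell without any other single library). Over all genes 12.3% rose and 10.1% fell (9.05% and 9.63% without Veh 2), so the count of falls did not stand out. Besides Il1b and Nos2, Tnf rose from 0.961, 0.935 and 1.14 CPM to 6.25, 3.70 and 6.59 CPM (2.42 ± 0.44, adjusted p = 0.00309). The prostaglandin receptor gene Ptger4 rose by 0.92, and P2rx7, an ATP-gated channel of immune cells, by 0.54. Trpv4, a warmth-sensitive and osmosensitive channel of keratinocytes, fell from 39.6, 36.2 and 31.7 CPM to 22.2, 16.8 and 23.9 CPM. Bdnf and Ptgs2 had log2 changes of 0.00 and -0.73 and did not pass. Of 13 nociceptor genes only 4 were high enough to test and none passed.

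Among 24 genes of translation control 2 rose and 2 fell (2 and 3 without Veh 2, and 1 fell without PRL 1, PRL 2 or Veh 3). With all 6 libraries these shares were no higher than the 12.3% and 10.1% over all genes. Without Veh 2 the share of falls was somewhat above the 9.63% over all genes, and in limma voom 4 rose and 6 fell. The list did not stand out in the main fit, and its members are given singly. Eif2ak2, the kinase PKR that interferon induces, rose by 0.85. Cpeb1, which binds the 3′ ends of mRNAs, rose from 12.6, 15.9 and 13.9 CPM to 28.8, 21.4 and 26.8 CPM (0.87 ± 0.20, adjusted p = 0.00926), and its relatives Cpeb2 and Cpeb4 fell by 0.63 and 0.27. These are levels of RNA, and translation itself was not measured in these files.

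The change in the male paw was set against that in the female paw, which shares no library with it. In females 1111 of the same 14721 genes passed (7.55%), 963 higher (6.54%) and 148 lower (1.01%). Of the male rises, 792 (43.7%) were also female rises, which is 82.2% of the latter. Of the male falls, 95 (6.38%) were also female falls, which is 64.2% of those, and 2 genes were called in opposite directions. A call in one sex and not the other is no test of a difference. In the test of the difference itself 1 gene passed (0.00679%) in edgeR. At an unadjusted p under 0.05 there were 1924 genes, and the count with DESeq2 after adjustment was 158. Without Veh 2 no gene passed in edgeR, with 2108 at an unadjusted p under 0.05.

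The gene that passed was Il1rl1, which encodes ST2, the receptor of the alarmin IL-33 on mast cells, type 2 lymphoid cells and regulatory T cells. It stood at 38.1, 39.4 and 38.2 CPM with PRL and at 13.7, 13.3 and 12.4 CPM with Veh in males, a log2 change of 1.56 ± 0.11 (adjusted p = 3.75e-05). In females it stood at 28.3, 29.4 and 23.8 CPM with PRL and at 21.4, 25.9 and 22.5 CPM with Veh, with a change of 0.22 that did not pass (0.288). The male libraries were separate and the female ones overlapped, and the difference of the changes was 1.34 ± 0.16 (adjusted p = 0.0347). That call was lost without any one of the 6 male libraries (0.128 without Veh 2) and without 4 of the 6 female ones, and over all 20 alternatives the difference lay between 1.25 and 1.40. Il33, its ligand, rose by 0.66 in males, a call lost without Veh 2 (0.0557). The next genes by p did not pass: Clec2d, Tcta and Ccl11 had differences of 1.24, 0.83 and 1.22, and Phlda2, an imprinted growth regulator, had -3.18, with adjusted p from 0.20 to 0.205.

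**Figure D4:**
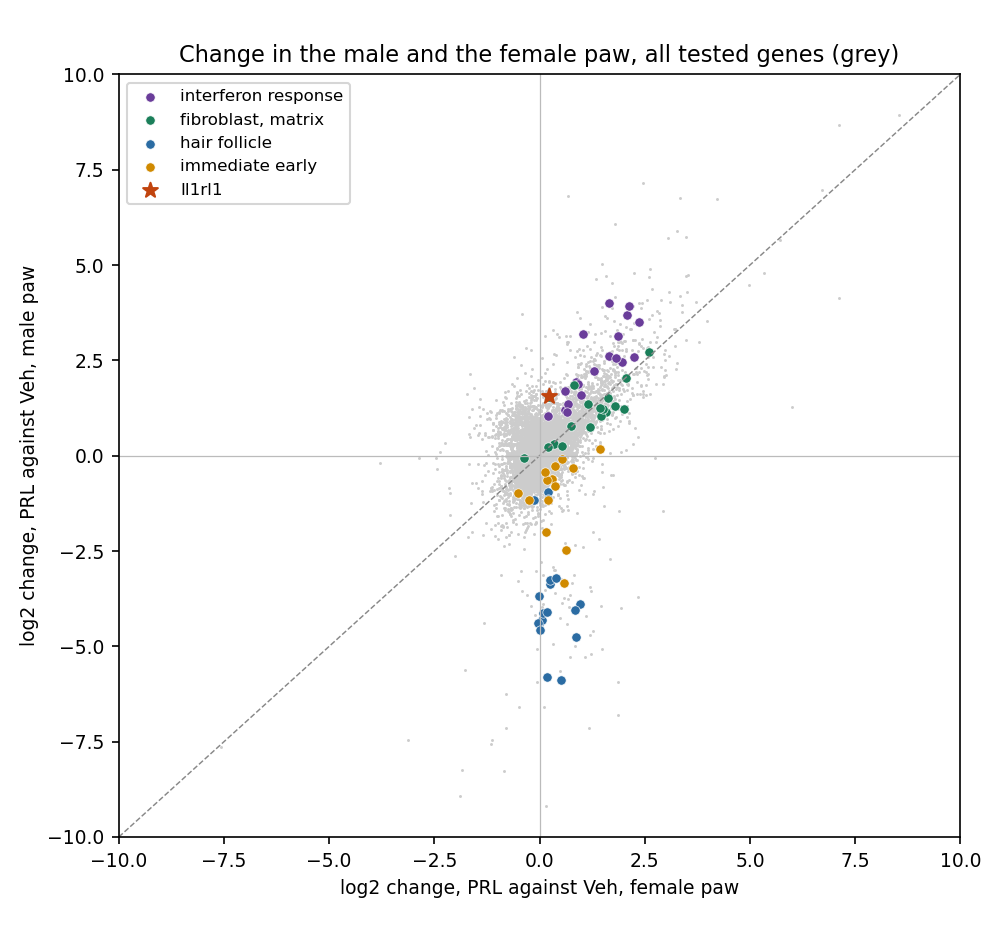
Log2 change between PRL and Veh in the female paw (x axis) and in the male paw (y axis) for all 14721 tested genes in grey, with members of 4 lists and Il1rl1 in colour and a dashed line where both changes are equal. Interferon and matrix genes lie at the upper right, while hair follicle genes lie far below 0 in males and near 0 in females, with none of their differences past the test.

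Interferon genes rose in both sexes, 19 of 19 in males and 14 of 19 in females, with medians of 2.46 and 1.29. MHC genes rose 12 of 12 in both, and matrix genes rose 14 of 18 and 12 of 18. Prlr had log2 changes of -0.47 and -0.41, a difference of -0.07 ± 0.26 that did not pass. Hair follicle genes had a median change of 0.19 in females against -4.07 in males, and no difference passed for any of the 18. Tchh stood at 139, 137 and 10.6 CPM in the female PRL libraries and at 133, 6.72 and 113 CPM in the female Veh libraries, so it was high or low within each female group. Immediate early genes had a median change of 0.30 in females against -0.64 in males. Fos spread from 67.9 to 697 CPM within the female PRL group, and its difference of -3.11 ± 0.87 did not pass (adjusted p = 0.215).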

How the data were processed

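The values were raw read counts per gene as deposited by the authors, with 22609 genes and 5 summary lines in each file. The summary lines were left out of library sizes and tests. Per the submitters' processing notes, bcl2fastq, TopHat2, HTSeq and the mouse build mm9 were used, while their versions, how HTSeq was set and whether it used strand are not given in the sources used. Libraries were made from 500 ng of RNA with a kit that depletes rRNA and marks strand, and were read as single ends of 50 nt, per the labels' protocols. The labels gave the groups. The 12 rRNA-depleted paw libraries, of both sexes, were fitted together in edgeR 4.0.16 (R 4.3.3, limma 3.58.1) with a mean for each group, filterByExpr defaults, TMM scaling and the quasi-likelihood F test, adjusted by Benjamini and Hochberg over all genes with a threshold of 0.05. Levels are TMM-scaled CPM unless given as CPM of gene reads, and errors of changes are SE from the fit. Counts differed between replicates by more than sampling noise in both male groups. Members and the 41 gene lists were chosen with earlier results of these data known. The rule for naming took Prlr, then the 10 rises and the 10 falls of greatest size whose groups did not overlap and whose mean log2 CPM reached 1, passing over predicted genes, the same in the fit without Veh 2, then up to 4 genes of each list by p in the fits with or without Veh 2. The 5 genes with the smallest p were named for the difference between the sexes, and other list members are given as examples. Ide and Fgfbp3 were named after their values were seen. Alternatives were RLE scaling, DESeq2 1.42.0, limma voom with sample weights, other filters, the male libraries alone, a replicate block, a muscle covariate, removal of rRNA-like genes and leaving out each library. Leaving out Veh 2 in the fit to the male libraries alone was added after seeing the data. Scripts were tested on simulated data. Promoters came from RefSeq on GRCm38.p6, another build than that of the counts, and were matched by symbol or unique synonym. Values of a few list members are not reported here. Floors for a count of 0 were 3 reads over the gene reads of a group.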

Additional observations from a re-analysis of the deposited data

Results flagged for a closer look

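Il1rl1, the IL-33 receptor gene, was singled out because its change with PRL differed between the male and the female paw in a direct test of that difference. The male change exceeded the female change by 1.34 on the log2 scale, and all 3 male PRL libraries lay above all 3 male Veh libraries. Such a lack of overlap held for 41.5% of all tested genes. Il1rl1 was the only one of 14721 genes to pass in edgeR, and it was also among the 158 called by DESeq2. The call was lost in 11 of 20 alternatives, among them the replicate block and leaving out any single male library.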

How the results depend on the processing

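Of 159 genes chosen by the naming rule and past the threshold in the male paw, 109 kept their call in all 16 alternatives of that comparison, 9 lost it without Veh 2 in the fit to all paw libraries (Ccnb2, Cdc20, Ctsk, Egln3, Krt33a, Lars2, Myh11, Rpl23 and Rpl7), and none changed direction. Socs2, Epcam, Lef1, Tchh and Il33, given as further list members or examples, also lost their call without Veh 2. The count of 3301 genes stayed between 3160 and 4696 in the alternatives that left out no library, except for 1877 with the replicate block. The fits without single libraries gave 2017 (without PRL 3) to 2792, and the fit to the male libraries alone without Veh 2 gave 2662. The corresponding ranges without single libraries were 1201 to 1409 for rises and 816 to 1439 for falls. For the difference between the sexes the count of 1 became 158 with DESeq2 (46 higher and 112 lower in males) and 9 with the muscle covariate, 8 of them lower. Without single libraries it ran from 0 to 6, with 0 to 4 higher and 0 to 2 lower. The causes were not tested. The lower depth of Veh 2 limits the precision of low genes in its group.

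Replicate numbers are shared by the groups, but the labels do not say that a number marks a shared animal or day. Libraries with the same number correlated at -0.30, -0.26 and 0.06 in their deviations from the group means. Not every library correlated best with its own number. With 3 libraries a group, these correlations cannot decide whether libraries of the same number are paired. With the replicate number as a block, 1877 genes passed in the male paw, 1164 higher and 713 lower, and 0 passed for the difference between the sexes.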
